A study of Homo sapiens with 5 samples.

Results

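The intermediate compartment bins are stretches of 1 Mb that lie in the middle of their chromosome's ranking from B-like to A-like chromatin. They were chosen by measured values, the cis contacts of the control library alone. For each of chromosomes 1 to 22, the contact signal between bins was divided by its mean at the same distance, and the bins were ordered by the leading eigenvector of the correlations of that observed over expected signal. The sign was set so that the eigenvector rose with a bin's ratio of trans signal (contacts with other chromosomes) to cis signal (contacts within its own). Bins between the 40th and 60th percentile of their chromosome were taken. This gave 525 intermediate bins of 2637 bins in all, from 6 on chromosome 22 to 48 on chromosome 2. The comparison classes were 536 bins at or above the 80th percentile (the A core), 536 in the bottom 20% (the B core), and 520 bins in each flank between a core and the middle.

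Chromatin inside the nucleus sorts into A compartments, which are open, gene-dense and transcribed, and B compartments, which are compact and often lie near the nuclear lamina. Each kind prefers partners of its own kind, also on other chromosomes, and a bin of 1 Mb with a middle rank can hold a boundary between them, a mixture of small domains, or chromatin of mixed state. ARID1A belongs to the BAF (SWI/SNF) complexes, which move nucleosomes, and its gene is often lost in ovarian clear cell carcinoma. CAPH2 (NCAPH2) is part of condensin II, which folds chromosomes and helps to keep chromosome territories apart.

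In situ Hi-C, which joins and sequences pieces of DNA that lie close together in fixed nuclei, was run on 5 libraries of RMG1 cells, a human ovarian clear cell carcinoma line. The control was 1 library carrying a control hairpin, wild type for ARID1A and CAPH2. The ARID1A knockout (KO) group was 2 libraries of cells edited with CRISPR, wild type for CAPH2. The CAPH2 knockdown (KD) group was 2 libraries with a short hairpin against CAPH2, wild type for ARID1A. By its title, the study asks how ARID1A affects the distribution of condensin II and the partition of chromosomes. The control shares the hairpin method with the KD libraries and not with the KO libraries, so editing and loss of ARID1A cannot be told apart. The labels do not say whether replicates were separate cultures or clones, so p-values reflect how far these libraries lie apart, which can be technical. Contact matrices hold no measure of either protein, and genotypes were taken from the labels.

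Each deposited file is a balanced matrix, in which every bin has about the same total signal. Whole contacts recovered from it came to 31.4 M and 32.4 M (megacontacts) in the KO libraries, 47.9 M in the control, and 55.7 M and 84.9 M in the KD libraries. The KO libraries stood apart in how many contacts a bin yielded. Recovered totals per bin (log2) correlated at 0.992 and 0.998 between the KD libraries and the control, but at 0.68 and 0.74 between the KO libraries and the control, over 2637 bins. The KO totals of the A core were 1.18 ± 0.0097 (SD, n = 2) times the median bin, against 0.957 in the control, and those of the B core 0.764 ± 0.0084, against 0.986. The median total of the intermediate bins was alike in all groups, at 1.02 ± 0.0040 in KO, 1.03 ± 0.0024 in KD (n = 2 each) and 1.03 in the control. Single intermediate bins differed more, with log2 differences in total between KO and KD from -1.05 to 1.11.

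In the control, the middle ranks were not the point where the eigenvector crosses 0. Of the 525 intermediate bins, 429 (81.7%) lay below 0, on the B side, and 96 lay above it. On 10 chromosomes every intermediate bin lay below 0. The threshold cut through closely spaced values: on chromosome 1, the bin just below the 40th percentile (chr1:86000001-87000000, hg19) had an eigenvector of -0.74 and the lowest intermediate bin (chr1:100000001-101000000) had -0.72, in units of the chromosome's SD. At the upper end, the highest intermediate bin (chr1:52000001-53000000) had 0.38 and the bin just above the 60th percentile (chr1:160000001-161000000) had 0.39. These values chose the bins and are given as a description.

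Along the chromosomes the intermediate bins were scattered. They formed 376 runs of neighbouring bins, and 266 bins (50.7%) had no intermediate neighbour. The longest run spanned 5 Mb, and 87 bins stood in runs of 3 or more. A change of sign of the eigenvector lay within 2 Mb of 66.1% of the intermediate bins and of 53.1% of all bins, so 33.9% of the intermediate bins lay away from any such boundary. Chromosome ends were no preferred place, with 6.29% of the intermediate bins and 7.74% of all bins under 5 Mb from an end.

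The choice of partners on other chromosomes was measured as the trans A-over-B preference, the log2 ratio of a bin's mean signal with A core bins to that with B core bins of the other autosomes. Trans contacts did not order the bins, but the trans to cis ratio of the control decided which end of each chromosome's order was A, and the core bins were chosen in the control. The median over the intermediate bins was 0.081 in the control, 0.22 and 0.22 in the KO libraries, and 0.068 and 0.079 in the KD libraries. The typical intermediate bin thus met A core bins 1.06 times as often as B core bins in the control and 1.16 and 1.17 times as often in KO. Both KO medians lay above all of the others. The bins behind these medians differed widely, from -1.34 to 2.36 in the control. A core partners were preferred, with a value above 0, by 303 of 525 intermediate bins in the control, by 365 and 358 in KO, and by 290 and 293 in KD.

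**Figure D1:**
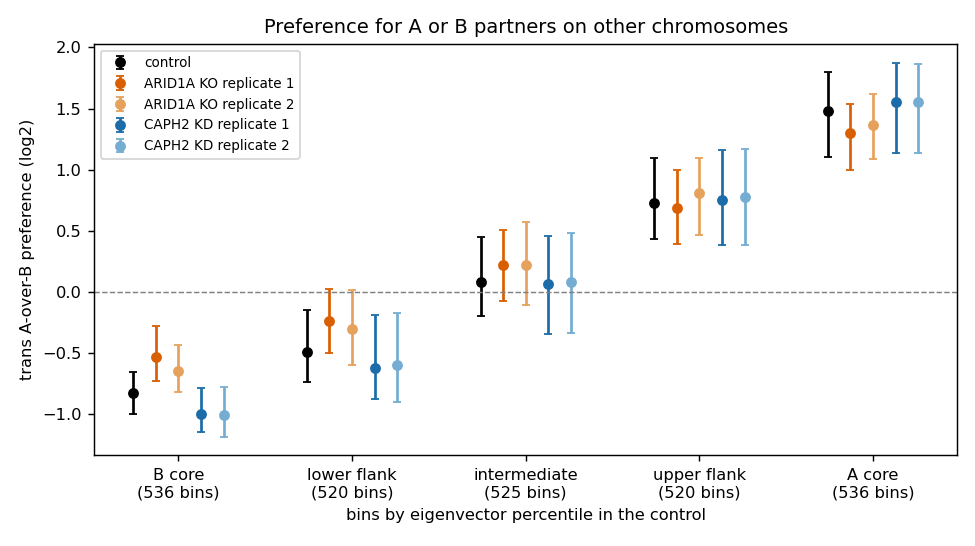
Trans A-over-B preference (log2, y axis) of the 5 classes of bins by their percentile in the control (x axis) in each of the 5 libraries; points are medians over bins and bars run from the lower to the upper quartile. The intermediate bins lie near 0 in every library, with KO medians of 0.22 and 0.22, and the KO libraries (orange) span a narrower range from B core to A core than the KD libraries (blue).

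The core classes of the KO libraries stood apart from those of the others in opposite directions. The control chose these classes, so part of this can follow from the choice. The B core median was -0.82 in the control, -0.59 ± 0.085 in KO and -1.003 ± 0.0078 in KD (SD over the medians of 2 libraries). The A core median was 1.48 in the control, 1.34 ± 0.046 in KO and 1.55 ± 0.0020 in KD. The distance between the core medians was thus 2.30 in the control, 1.83 and 2.02 in the KO libraries and 2.55 and 2.56 in the KD libraries. Against this distance, the median of the intermediate bins stood 39.3% of the way from the B core to the A core in the control, 42.0% ± 1.69 of the way in KO and 42.1% ± 0.45 in KD (SD, n = 2 each), a difference between KO and KD within the spread of the libraries. In cis the groups were apart, at 45.01% ± 0.57 of the way in KO, 42.8% ± 0.71 in KD and 42.9% in the control. The cis values of the control ranked the bins and cores. Bin by bin, no cis position passed between KO and KD (0% of all bins, smallest limma adjusted p = 0.461).

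Contacts of the intermediate bins with one another on other chromosomes were near the mean of all trans pairs in every library. Signal between intermediate bins of different chromosomes was 1.02 times the mean of all trans pairs in the control, 1.01 and 1.04 in KO, and 1.02 and 1.02 in KD. KO exceeded KD by 0.0084, less than the gap between the KO libraries, and the difference turned to -0.0047 without KO replicate 2. Signal with the A core was 1.04 in the control, 1.08 and 1.09 in KO, and 1.02 and 1.02 in KD, and signal with the B core was 0.909, then 0.881 and 0.876, then 0.917 and 0.912. The KO and KD libraries did not overlap for either core, while an exact permutation test of 2 libraries against 2 cannot go below p = 0.33 (two-sided). On the same chromosome, observed over expected signal between intermediate bins was 1.17 in the control, 1.17 and 1.18 in KO, and 1.18 and 1.20 in KD. In the control this was the highest of their 5 partner classes, above the lower flank at 1.15, and signal with the A core was the lowest, at 0.813. The cis signal of the control ranked the bins, so this order is a description that follows in part from the rule.

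**Figure D2:**
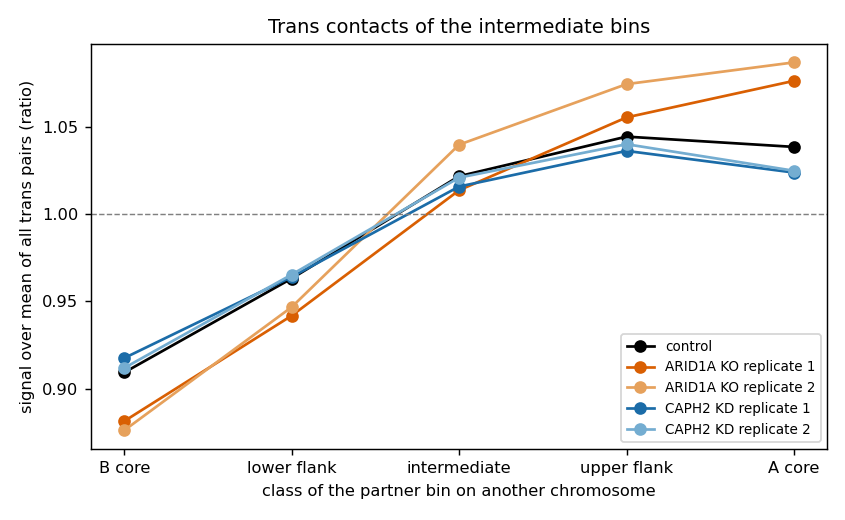
Mean trans signal of intermediate bins with bins of the 5 classes on other chromosomes (x axis), as a ratio to the mean of all trans pairs of the library (y axis), with 1 line per library. The KO lines (orange) are the lowest for B core partners (0.881 and 0.876) and the highest for A core partners (1.08 and 1.09), and the 5 lines lie close together for intermediate partners.

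A middle rank within a chromosome meant different partners on different chromosomes. In the control, the chromosome of an intermediate bin accounted for 63.4% of the variance of the trans preference over the 525 bins, and in the other libraries for 54.1% to 62.3%. The lowest median in the control was that of the 38 intermediate bins of chromosome 4, with -0.41 in the control, -0.16 and -0.20 in KO, and -0.49 and -0.49 in KD. The highest in the control was that of the 11 intermediate bins of chromosome 19, the most gene-dense human chromosome, with 1.67 in the control, 1.34 and 1.62 in KO, and 1.59 and 1.65 in KD. Chromosome 22, with a control median of 1.53, and chromosome 17, with 1.39, followed it. In KO replicate 1 the lowest was chromosome 18, at -0.17, and the highest chromosome 22, at 1.41. The intermediate bins of these small chromosomes thus had a preference like that of the A core as a whole, whose control median was 1.48. All 22 chromosomes were ranked within themselves, and a bin of chromosome 19 in the middle of its own ranking was called intermediate regardless of its level.

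**Figure D3:**
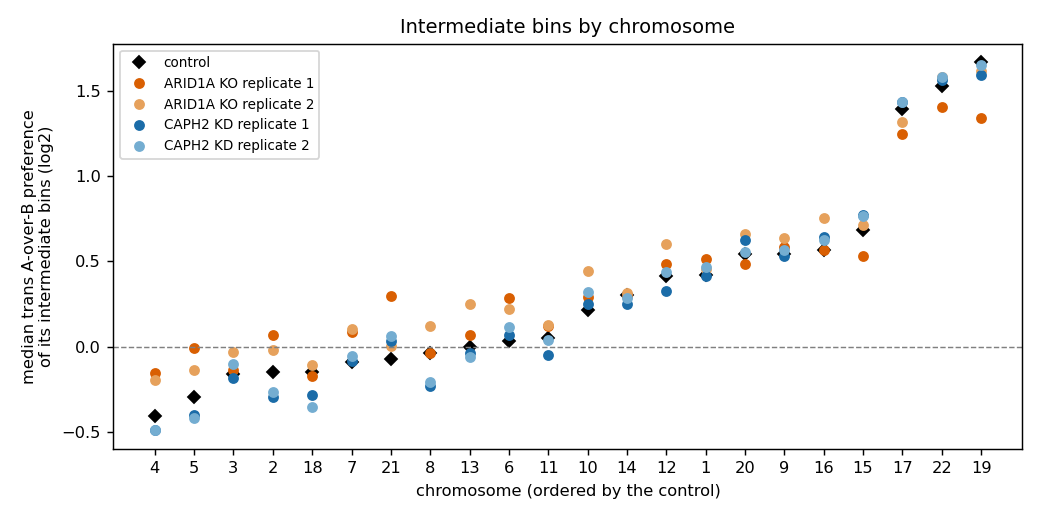
Median trans A-over-B preference (log2, y axis) of the intermediate bins of each chromosome (x axis, ordered by the control), with 1 point per library. Medians run from -0.41 on chromosome 4 to 1.67 on chromosome 19 in the control, and the KO points (orange) lie above the KD points (blue) mostly on the chromosomes at the left.

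KO and KD medians were set side by side on each chromosome. Both KO medians lay above both KD medians on 12 of 22 chromosomes and below both on 2 (chromosomes 15 and 17), and the groups overlapped on 8. The same count for all bins of each chromosome is not given here. Bin by bin, the median difference between KO and KD was 0.15 over the intermediate bins and 0.14 over all bins. On chromosome 4 the KO mean exceeded the KD mean by 0.31, on chromosome 5 by 0.34 and on chromosome 2 by 0.31. On chromosome 17 the difference was -0.15.

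KO was compared with KD bin by bin, since neither group chose the bins. The control chose them and the cores. Over the intermediate bins, its trans preference correlated at 0.98 with each KD library and at 0.91 and 0.95 with the KO libraries. Part of a difference between KO and KD can thus follow from the choice. With limma over all 2637 bins, 144 of the 525 intermediate bins (27.4%) passed an adjusted p of 0.05, and 131 of them were higher and 13 lower in KO. Over all bins 37.6% passed, 28.1% higher and 9.56% lower. Their median difference was 0.15, and that of all bins was 0.14, a median over classes that differed in opposite directions (0.40 in the B core, 0.30 and -0.059 in the lower and upper flanks, and -0.22 in the A core). After each library was centred on the median of all its bins, 78 intermediate bins (14.9%) passed, 41 higher and 37 lower, against 28.3% of all bins, 11.3% higher and 16.9% lower. When each bin was instead placed between the core medians of its library, no bin passed (0%). Read in order from B to A, the share called higher or lower changed steadily: 350 of 536 B core bins were higher and none was lower, and 5 of 536 A core bins were higher and 190 lower. The lower flank had 224 of 520 higher and 3 lower, and the upper flank 30 higher and 46 lower. The cores were the ends of the control's ranking and are themselves the partners, so part of this order can follow from the choice.

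Within the intermediate bins, the calls in each direction stood at different levels in KD, which is a description, since the KD level enters the difference. The 131 bins called higher had a median of -0.44 in KD and 0.0042 in KO, and 108 of them were below 0 in KD. The 13 bins called lower had a median of 0.87 in KD and 0.59 in KO, and all 13 were above 0 in KD. The SD over the 525 bins was 0.64 for the KD mean and 0.49 for the KO mean. The KO and KD libraries did not overlap in 282 intermediate bins that were higher in KO and in 69 that were lower, against 50.5% and 25.7% of all bins.

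The contacts a bin yielded moved with these calls. The log2 difference in recovered total between KO and KD had a median of -0.21 in the bins called higher, 0.25 in those called lower and 0.024 in the 381 not called. When bins whose yield in KO differed over 1.5-fold from the other libraries were left out, 120 of 495 intermediate bins passed, 112 higher and 8 lower, against 28.2% of the bins left. The part of yield in the difference was not tested beyond that. The calls also depended on which libraries entered: 357 intermediate bins passed without KO replicate 1 and 383 without KO replicate 2, where the spread came from KD alone (70.6% and 79.1% of all bins), and none passed without either KD replicate (0% of all bins). On recovered contacts, without balancing, 484 passed, all higher in KO, against 85.8% of all bins. Without balancing, the ratio also carries the yield of the partners themselves. That yield was 1.18 times the median bin in the A core and 0.764 in the B core in KO, and 0.925 and 1.01 in KD.

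**Figure D4:**
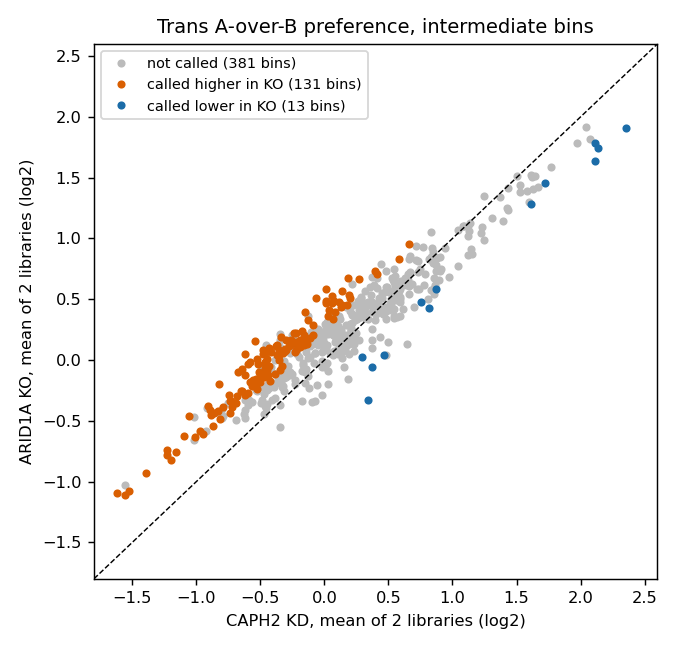
Trans A-over-B preference (log2) of each intermediate bin in KO (y axis) against KD (x axis), each the mean of 2 libraries; the dashed line marks equal values, and colours mark bins that passed limma's adjusted p of 0.05. The 131 bins called higher in KO lie mostly at negative KD values and the 13 called lower all at positive ones.

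Of the bins called higher, the largest difference was at chr8:43000001-44000000 (hg19), the bin next to the centromere. Its trans preference was -0.41 in the control, 0.0030 and 0.31 in KO, and -0.58 and -0.51 in KD, a difference of 0.70 with a standard error of 0.12 (limma, adjusted p = 0.0199). Both KO libraries were above the other 3, with a wide gap between them. This bin stood 0.5 Mb from a change of sign of the eigenvector, and yielded fewer contacts in KO (log2 of its total over the median bin -2.13 and -2.23, against -1.61 and -1.66 in KD). The bin chr12:34000001-35000000 was steadier, at -0.49 in the control, 0.041 and 0.051 in KO and -0.62 and -0.61 in KD (difference 0.66, standard error 0.070, limma adjusted p = 0.0198). Its libraries lay much closer together within each group than the groups did to each other. Its yield was low in every library, however. Log2 totals over the median bin were -2.01 in the control, -2.19 and -2.11 in KO, and -1.97 and -2.001 in KD. These totals lay near the limit of 0.25 of the median, below which bins were left out by their control total. The part of this low yield in the difference was not tested.

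A pair of bins on the long arm of chromosome 7 followed. At chr7:115000001-116000000 the values were -0.64 in the control, -0.0045 and -0.40 in KO, and -0.87 and -0.77 in KD, a difference of 0.62. At chr7:119000001-120000000 they were -0.87 in the control, -0.44 and -0.47 in KO, and -1.10 and -1.01 in KD, a difference of 0.60. The latter bin still preferred B core partners in every library. Both chromosome 7 bins yielded fewer contacts in KO than in KD. Log2 totals were -1.10 and -1.20 against -0.79 and -0.84 at the first, and -0.33 and -0.25 against 0.15 and 0.15 at the second. The bin chr3:5000001-6000000 had -0.50 in the control, -0.19 and -0.0079 in KO, and -0.67 and -0.69 in KD, a difference of 0.58. Its log2 totals were alike, at 0.53 and 0.60 in KO and 0.56 and 0.56 in KD. In these 5 bins both KO libraries were above the control and both KD libraries below it.

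Among the bins called lower, chr2:218000001-219000000 had values on both sides of 0. Its trans preference was 0.043 in the control, -0.56 and -0.093 in KO, and 0.33 and 0.35 in KD, a difference of -0.67 with a standard error of 0.16 (limma, adjusted p = 0.0297). Its neighbour chr2:217000001-218000000 had 0.14 in the control, -0.16 and 0.053 in KO, and 0.41 and 0.32 in KD. The bin chr3:139000001-140000000 had 0.37 in the control, 0.11 and -0.031 in KO, and 0.49 and 0.44 in KD, a difference of -0.43. These 3 bins had KO values near or below 0 and KD values above the control. Near the end of the short arm of chromosome 19, chr19:1000001-2000000 had 2.36 in the control, 1.94 and 1.88 in KO, and 2.34 and 2.37 in KD. Its neighbour chr19:2000001-3000000 had 1.94 in the control, 1.64 and 1.64 in KO, and 2.16 and 2.07 in KD. Both chromosome 19 bins kept a strong preference for A core partners in every library, and both yielded more contacts in KO, with log2 totals of -0.47 and -0.48 against -1.62 and -1.55 in KD at the first and of 0.14 and 0.093 against -0.90 and -0.81 at the second.

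Intermediate bins on different chromosomes also differed in their calls. Of the 205 on chromosomes 1 to 5, 68 were called higher in KO and 3 lower, with a median difference of 0.25 (34.6% called, against 39.4% of all bins there). Of the 71 on the gene-poor chromosomes 4, 13 and 18, 23 were higher and none lower, with a median of 0.28 (32.4% called, against 39.2% of all bins there). Of the 59 on the small gene-rich chromosomes 16, 17, 19, 20 and 22, 2 were higher and 8 lower, with a median of -0.11 (16.9% called, against 34.8% of all bins there). Those on the B side of the eigenvector had 120 of 429 higher and 5 lower (29.1% called, against 46.0% of all B side bins). Those on the A side had 11 of 96 higher and 8 lower (19.8%, against 25.6%). Distance from a compartment boundary went the same way in intermediate bins and in all bins: within 2 Mb of a change of sign, 23.9% of intermediate and 27.4% of all bins were called, and farther away 34.3% and 49.2%. The difference between these subsets was not tested.

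Against the control no intermediate bin was called in trans preference, as none was over all bins (0% called). In KO against the control the median difference was 0.11, against 0.084 over all bins, and 82 of 525 intermediate bins had an unadjusted p under 0.05 by limma (21.4% of all bins). Both KO libraries were above the control in 269 intermediate bins (47.6% of all bins) and below it in 70 (24.5% of all bins). In KD against the control the median difference was -0.039 in the intermediate bins as in all bins, and 23 had an unadjusted p under 0.05 (5.57% of all bins). Both KD libraries were above the control in 165 intermediate bins and below it in 279 (33% and 53.2% of all bins). Leaving out KO replicate 1 or 2, which takes the spread from KD alone, gave 260 and 275 calls for KO (47.6% and 62.5% of all bins). It gave 154 in both cases for KD, 44 higher and 110 lower (33% of all bins), and recovered contacts gave 467 for KO (79.4% of all bins).

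The bins with the smallest p against the control did not pass. In KO they were chr12:34000001-35000000 and chr19:1000001-2000000, described above, and chr7:56000001-57000000, with -0.18 in the control, 0.39 and 0.40 in KO and -0.24 and -0.057 in KD (limma, adjusted p = 0.189 for each). In KD they were chr18:41000001-42000000, with -0.15 in the control and -0.51 and -0.45 in KD, chr15:80000001-81000000, with 0.49 and then 0.83 and 0.81, and chr18:59000001-60000000, with -0.24 and then -0.64 and -0.54 (limma, adjusted p = 0.755 for each). Of the bins named for KO, chr12:34000001-35000000 had a low yield, as given above, and so had chr7:56000001-57000000. Log2 totals of the latter were -2.004 in the control, -1.91 and -2.02 in KO, and -2.08 and -2.08 in KD.

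The cis A-over-B preference used partners on the same chromosome and observed over expected signal, so that distance was divided out. It is the quantity closest to the ranking, so its comparison with the control is a description. Its median over the intermediate bins was -0.39 in the control, -0.28 and -0.30 in KO, and -0.43 and -0.42 in KD. In the control, the typical intermediate bin thus had 1.31 times as much observed over expected signal with B core as with A core bins. Its trans signal, not divided by an expected value, was slightly higher with A core bins. KO exceeded KD by a median of 0.11, and by 0.075 over all bins. No intermediate bin and no other bin (0%) was called by limma, with 82 intermediate bins under an unadjusted p of 0.05 (21.1% of all bins). KO and KD did not overlap in 208 intermediate bins that were higher in KO and 76 that were lower (34.7% and 23.3% of all bins). Without KO replicate 1 or 2 there were 199 and 288 calls (38.1% and 57.4% of all bins), and on recovered contacts 261 (46% of all bins).

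The cis bins with the smallest p stood near the centromere of chromosome 8 and again at chr3:139000001-140000000. At chr8:43000001-44000000 the cis preference was -1.32 in the control, -0.064 and 0.20 in KO, and -1.32 and -1.53 in KD, and at chr8:47000001-48000000 it was -1.32, then -0.48 and -0.20, then -1.36 and -1.63. At chr3:139000001-140000000 it was -0.25 in the control, -1.10 and -1.34 in KO, and 0.00093 and -0.12 in KD (limma, adjusted p = 0.137 for all 3). The differences between KO and KD were 1.49, 1.16 and -1.16, in the same direction as in trans for the bins at 43 Mb on chromosome 8 and at 139 Mb on chromosome 3. At 47 Mb on chromosome 8 the trans values were -0.61 and -0.67 in KD and -0.23 and 0.080 in KO, again higher in KO. That bin also yielded fewer contacts in KO, with log2 totals of -1.77 and -1.76 against -1.31 and -1.33 in KD. At 139 Mb on chromosome 3 the totals were 0.30 and 0.040 in KO and 0.045 and 0.058 in KD. The part of yield in these differences was not tested.

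The trans share, the log2 ratio of a bin's summed trans to summed cis signal without contacts inside the bin, set the sign of the eigenvector in the control, so its order over the classes there follows from the rule. The control's median was -0.92 in the B core, -0.62 in the intermediate bins and -0.040 in the A core. Over the intermediate bins it was -0.67 and -0.52 in KO and -0.47 and -0.47 in KD. The 2 KO libraries lay on either side of the control. Both KD libraries were above the control in 520 of 525 intermediate bins and below it in 1, against 99.4% and 0.19% of all bins, so the difference was shared by nearly all bins. The median difference between KD and control was 0.15 (0.16 over all bins), and no bin passed (0%; 69 intermediate bins and 21.2% of all bins under an unadjusted p of 0.05 by limma). When either KO library was left out, 499 passed, all higher in KD, as did 97.1% of all bins.

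KO trans shares were below KD, with a median difference of -0.11 (-0.13 over all bins). The groups did not overlap in 319 intermediate bins that were lower and 21 that were higher in KO (64.7% and 3.45% of all bins). Against the control the KO libraries were both higher in 201 intermediate bins and both lower in 86 (38.6% and 19.8% of all bins), with a median difference of 0.038. No bin was called by limma in either comparison (0%), with 120 and 23 intermediate bins under an unadjusted p of 0.05 (31.8% and 6.79% of all bins). With contacts inside the bin counted as cis, 343 intermediate bins passed between KO and KD, all lower in KO (67.3% of all bins). Without KO replicate 1 or 2, 327 and 460 passed between KO and KD (71% and 88.4% of all bins), and 368 and 288 between KO and control (70.9% and 54.9%).

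The bins with the smallest p in trans share did not pass. Between KO and KD all 3 were on chromosome 18: chr18:41000001-42000000 had -1.10 in the control, -1.33 and -1.39 in KO, and -0.84 and -0.85 in KD (limma, adjusted p = 0.0720). Also lower in both KO libraries were chr18:34000001-35000000, with a difference of -0.49 from KD, and chr18:61000001-62000000, with -0.35. These 3 bins yielded fewer contacts in KO, with log2 totals of -0.89 to -1.23 against -0.38 to -0.48 in KD. Between KO and control all 3 were on chromosome 19 (limma, adjusted p = 0.676): chr19:11000001-12000000 had 0.44 in the control, 0.77 and 0.81 in KO, and 0.56 and 0.56 in KD, chr19:36000001-37000000 had a difference of 0.32 from the control, and chr19:2000001-3000000 one of 0.26. Those bins yielded more contacts in KO, for example with log2 totals of 0.11 and 0.11 at the first against -0.62 in the control. The part of yield in these differences was not tested. Between KD and control the 3 were chr15:56000001-57000000, chr17:20000001-21000000 and chr1:207000001-208000000, with differences of 0.27, 0.29 and 0.25 (limma, adjusted p = 0.214).

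Each library's own eigenvector was then used to ask how many of the bins kept a middle rank. Between the 40th and 60th percentile were 285 of 525 (54.3%) in KO replicate 1, 377 (71.8%) in KO replicate 2, 403 (76.8%) in KD replicate 1 and 415 (79.0%) in KD replicate 2. In both KO libraries 208 bins (39.6%) kept the middle rank, in both KD libraries 388 (73.9%), and in all 4 libraries 168 (32%). The control chose the bins, so part of this loss follows from the choice. When KD replicate 1 made the choice, 90.1% kept their rank in KD replicate 2, and when KO replicate 1 made it, 48.2% kept theirs in KO replicate 2, fewer than the 54.3% shared by KO replicate 1 and the control. The KO libraries thus differed more from each other than the KD libraries did.

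**Figure D5:**
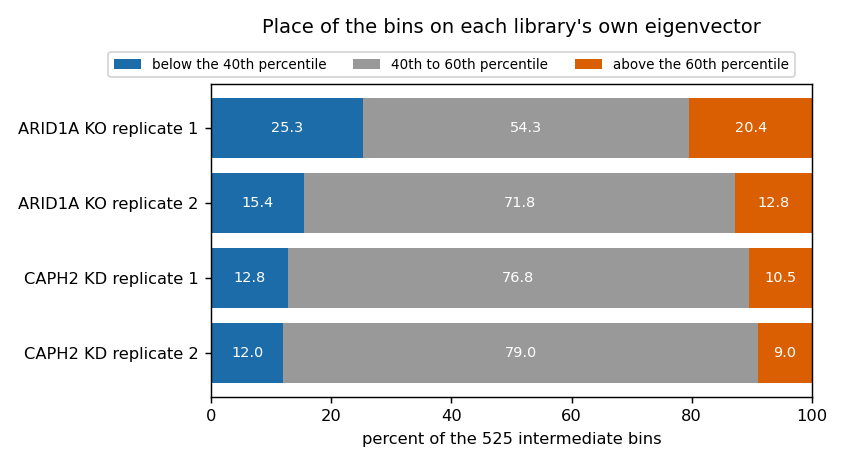
Percent of the 525 intermediate bins (x axis) that lie below, within and above the 40th to 60th percentile on the eigenvector of each of the other 4 libraries (y axis). The share that stays runs from 54.3% in KO replicate 1 to 79.0% in KD replicate 2, and the losses fall on both sides.

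Bins that left the middle mostly moved to a flank. In KO replicate 1, 133 stood below and 107 above it, and 24 reached the B core and 9 the A core of that library. These counts include chromosome 5, where the eigenvector of KO replicate 1 did not follow that of the control (r = 0.0029). In KO replicate 2 the numbers were 81 and 67, with 3 and 1 in the cores, and in KD none reached a core in either library. In both KO libraries 32 bins stood below and 28 above the middle, against 55 and 40 in both KD libraries. The flanks, which can also lose bins both ways, kept 53.5% and 64.4% (lower flank) and 62.9% and 74.2% (upper flank) in KO and 74.8% and 76.0%, and 81.0% and 81.9%, in KD, so the intermediate bins stood between them in every library. The cores kept more of their bins: the A core 81.3% and 86.9% in KO and 91.0% and 90.5% in KD, the B core 69.4% and 79.5% in KO and 87.1% and 87.7% in KD. A core can lose bins in a single direction, and the middle in both, so the shares of the classes are not on an equal footing.

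A single chromosome set the extremes, through the eigenvector of 1 library. On chromosome 5, the eigenvectors of the control and of KO replicate 1 had r = 0.0029 over 175 bins, while those of the control and of KO replicate 2 had r = 0.96. The percentiles of KO replicate 1 there thus do not follow the compartment ranking of the control, and they put all 10 intermediate bins with the largest shifts up and down in KO on this chromosome. For example, chr5:125000001-126000000 stood at percentile 51.1 in the control, 96.0 and 70.1 in KO, and 58.0 and 58.0 in KD, and chr5:143000001-144000000 at 56.3, then 0.575 and 37.4, then 42.5 and 41.4. The cis preference of the latter bin was -0.57 in the control and -0.48 in KO replicate 1, a small difference beside that in percentile. With the best matched of the first 3 eigenvectors, 56.0% of the intermediate bins kept the middle rank in KO replicate 1. Without chromosome 5, 56.9% and 72.4% of 490 intermediate bins kept the middle rank in KO and 78.0% and 80.2% in KD.

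With chromosome 5 set aside after its values were seen, the largest shift up in KO was at chr4:112000001-113000000, from percentile 47.1 in the control to 82.4 and 54.0, and the largest shift down at chr2:66000001-67000000, from 40.9 to 7.66 and 16.6. Only the latter was far from the middle in both KO libraries. The bin chr3:139000001-140000000 went from 59.3 to 33.0 and 32.5 in KO and stood at 67.0 and 66.0 in KD, the same order as for its trans and cis preference. Of the 5 largest shifts up and the 5 largest down in KD, 2 and 4 were on chromosome 5. In KD the largest shifts up outside chromosome 5 were at chr15:73000001-74000000, from 51.9 to 63.3 and 68.4, and chr22:50000001-51000000, from 48.5 to 63.6 and 60.6. The largest shift down outside chromosome 5 was at chr3:26000001-27000000, from 43.3 to 28.9 and 33.5.

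Agreement between libraries over the intermediate bins is given as a description, since the bins share their chromosomes and libraries. The trans preference of the 525 bins correlated at 0.99 between the KD libraries, at 0.98 between each KD library and the control, and at 0.87 between the KO libraries. The KO libraries correlated with the control at 0.91 and 0.95, above their correlation with each other. In cis the same correlations were 0.97 between the KD libraries and 0.60 between the KO libraries. The typical intermediate bin had 759 and 745 recovered trans contacts with the B core in KO, 1447 in the control, and 1841 and 2732 in KD, which gives a counting error of its log2 preference of 0.067 and 0.068 in KO, 0.053 in the control, and 0.048 and 0.039 in KD. Counting error covers sampling of contacts only.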

How the data were processed

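The 5 in situ Hi-C libraries of RMG1 cells were grouped by their labels. Each deposited file gives the contact signal of every pair of 1 Mb bins, aligned to hg19 with Bowtie2 per the submitters' processing notes. Its version, the read filters and the balancing program were not given in the sources used here. That the signal was balanced is read from the values: row sums of 94.9% to 96.5% of bins lay within 0.1% of the median. Balancing evens out the total signal of each bin. It does not set how that total divides between cis and trans, and the part of copy number in that division was not tested. Dividing by bin factors estimated from low values gave whole contacts (within 0.05) for 98.1% to 99.2% of values.

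Of 2667 autosomal bins measured in all 5 libraries, 30 with a recovered control total under 0.25 of the median were left out. Preferences are log2 ratios of mean signal in trans, and of mean observed over expected signal in cis, with no pseudocount. limma 3.58.1 (R 4.3.3; lmFit, eBayes) was fitted to all 5 libraries, with 2 residual degrees of freedom and Benjamini-Hochberg adjustment over 2637 bins at 0.05. A run on simulated data gave every library of a bin the same spread. Here the SD between replicates in trans preference was 0.175 in KO and 0.0503 in KD, so that run does not speak for this setting. All matrices are signal, so no count model was used. Cis values were not tested against the control, which ranked the bins by them.

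The intermediate bins, the classes and the splits were chosen with earlier results of these data known. Bins named in each tested comparison were the 5 with the largest difference in each direction among those that passed with no overlap between groups, or else the 3 with the smallest p, and the 5 with the largest mean percentile shift each way in KO and in KD with both libraries agreeing in direction. An annotation of hg19 was not used here, so no genes are named for the bins and no sequences are shown. Alternatives were recovered contacts, thinning to the shallowest library, other windows (45 to 55, 35 to 65) and partner shares (10%, 30%), the choice made on each other library, other filters on low bins, capped strong pairs, cis contacts from 5 Mb, a pseudocount of 0.05, contacts inside a bin counted as cis, the best matched of the first 3 eigenvectors, a replicate block and each library left out. Centring, the position between the cores, leaving out bins with a 1.5-fold difference in yield and leaving out chromosome 5 were added after seeing the data.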

Additional observations from a re-analysis of the deposited data

How the results depend on the processing

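For trans preference in KO against KD, the 144 calls became 484 on recovered contacts, 59 of the smaller set with the 45 to 55 window, 88 with the choice made on KO replicate 1, 78 after centring, 0 as position between the cores, and 0 to 383 with 1 library left out. Under the replicate block 156 passed (39.7% of all bins), and no comparison with 0 calls gained any. The replicate numbers did not pair the samples, with only 2 pairs and a correlation of same-numbered deviations over 2637 bins of 0.024 in trans preference, 0.074 in cis preference and 0.022 in trans share. Other comparisons had no calls in the chosen setting. In trans preference, KO against control gave 467 on recovered contacts and 0 to 275 with 1 library left out, and KD against control 0 to 154 with 1 left out. In cis preference, KO against KD gave 261 on recovered contacts and 0 to 288 with 1 left out. In trans share, KO against KD gave 343 with contacts inside the bin counted as cis and 0 to 460 with 1 left out, KO against control 0 to 368 and KD against control 0 to 499.

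The median difference in trans preference between KO and KD, 0.15, became 0.014 after centring and 0.63 on recovered contacts, which also moved that between KO and control from 0.11 to 0.54 and that in cis preference between KO and KD from 0.11 to 0.57. Centring turned the sign of several median differences, to -0.037 for cis preference in KO against KD, -0.028 for trans preference in KO against control, 0.024 for trans share in KO against KD and -0.016 for trans share in KD against control. For trans share in KO against control, the median was -0.064 with contacts inside the bin counted as cis, and -0.015 to 0.090 with 1 library left out. KO minus KD signal among intermediate bins ranged down to -0.0047 and up to 0.021 with 1 library left out.

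The mean percent of bins that kept a middle rank in KO was 63.0 in the chosen setting and at most 73.1 in any setting. On recovered contacts it was 48.2, with the 45 to 55 window 43.3, and with the choice made on either KO library 48.2. In KD it was 77.9, against 72.1 on recovered contacts, 62.7 with the 45 to 55 window, 86.8 with 35 to 65, 79.8 with bins under 0.5 of the median left out, 90.1 with the choice made on either KD library, and 51.0 and 70.2 on KO replicates 1 and 2. Except where the construction shows it (fewer bins, fewer libraries, a shift removed, yields of the partners left in), the cause was not tested. With 1 control, 2 libraries a group and 2 residual degrees of freedom, a count of 0 against the control does not show that values were alike. The KO libraries were the shallowest, and thinning all libraries to the shallowest gave 139 calls between KO and KD (34.0% of all bins).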
